A study of Mus musculus with 6 samples.

Results

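The genes described here are 10 components of transforming growth factor beta (TGF-beta) signalling: the ligand gene Tgfb1, the receptor genes Tgfbr1, Tgfbr2 and Tgfbr3, the signal transducers Smad2, Smad3 and Smad4, the inhibitory Smad7, and the nuclear co-repressors Ski and Skil. Every probe set of the array whose platform annotation named exactly 1 of these genes was taken, which gave 24 probe sets out of 34945 probe sets and 18193 genes with a single gene name. For 4 of the genes there were 3 probe sets and for 6 there were 2. Expression was measured in haematopoietic stem cells (HSC) from 2 genotypes, Lig4mut and wild type (WT), with 3 arrays each. The Lig4mut mice and the Lig4+/+ controls both came from crosses of Lig4mut/+ parents, were 6 to 8 weeks old, and had no other allele or treatment named in the labels. DNA ligase IV, the product of Lig4, joins broken DNA ends, and the nature of the mutation is not stated in the labels. The cells were bone marrow cells sorted as CD150+ CD48- KSL (Kit+, Sca-1+, without lineage markers), and the labels do not tell whether mice were pooled. With nothing more on the source of each replicate, p-values measure only the spread between these samples.

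TGF-beta is released in a latent form and, once activated, binds the type II receptor TGFBR2, which recruits and phosphorylates the type I receptor TGFBR1. TGFBR1 then phosphorylates SMAD2 and SMAD3, which enter the nucleus with SMAD4 and switch target genes on or off, while SMAD7 blocks the receptor and SKI and SKIL repress the Smad complexes. In bone marrow the pathway is known as a signal that holds HSC in quiescence.

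Levels are RMA values on the log2 scale, quantile normalized across the 6 arrays, with a floor at 3, and a level of 1 probe set cannot be set against that of another. Deposited array medians were 5.97 to 6.05 in Lig4mut and 6.29 to 6.34 in WT. The targeted gene Lig4 was at 4.97, 3.16 and 3.10 in Lig4mut and at 7.53, 6.66 and 7.63 in WT, so the genotypes did not overlap. Marker genes of HSC were present on all arrays, with a mean level over 7 measured genes of 9.45 to 10.27 in Lig4mut and 10.47 to 10.75 in WT. Of these 7, 5 had lower mean values in Lig4mut, and 2 were lower at an unadjusted p under 0.05, beside 4.03% of all genes. The 2 were the sort gene Kit, at 9.62, 9.56 and 10.35 in Lig4mut and 10.95, 10.70 and 10.73 in WT, and the transcription factor gene Meis1, at 9.80, 8.37 and 9.48 in Lig4mut and 10.57, 11.11 and 10.92 in WT. Hlf, another HSC transcription factor gene, also had all Lig4mut arrays below all WT arrays (-1.44 ± 0.60), whereas the sort gene Slamf1, which encodes CD150, overlapped, with 10.04, 8.89 and 10.71 in Lig4mut and 9.58, 10.17 and 9.17 in WT. The part of these marker differences in the values of the TGF-beta genes was not tested. The female-specific RNA Xist was high on 1 array of each genotype, at 11.55 in Lig4mut replicate 2 and 12.27 in WT replicate 3 as the mean of 3 probe sets, and between 4.31 and 4.95 on the others.

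None of the 24 probe sets passed the threshold of 0.05 after adjustment over all probe sets (limma), where 0.00286% of all probe sets did, and the smallest adjusted p among them was 0.215. At an unadjusted p under 0.05, 2 of the 24 were lower in Lig4mut and 0 were higher, beside 5.3% and 12.2% of all probe sets. The 2 were 1 probe set of Tgfbr1 and 1 of Smad3. Of the 23 probe sets above the floor, 11 had higher and 12 lower mean values in Lig4mut, beside 56.6% higher of all probe sets above the floor. The median difference of the 23 was -0.013. It was 0.099 over all probe sets above the floor and 0.082 over all probe sets. The median of the 23 changed sign with the setting: it ran from -0.20 to 0.13 over single arrays left out and was 0.23 with arrays centred on their medians, where that of all probe sets was 0.28. All Lig4mut arrays lay above all WT arrays for 1 probe set (16.6% of all probe sets) and below them for 3 (7.13% of all probe sets). The differences are Lig4mut minus WT, and in bulk samples fewer cells of a type and less RNA per cell cannot be told apart.

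**Figure D1:**
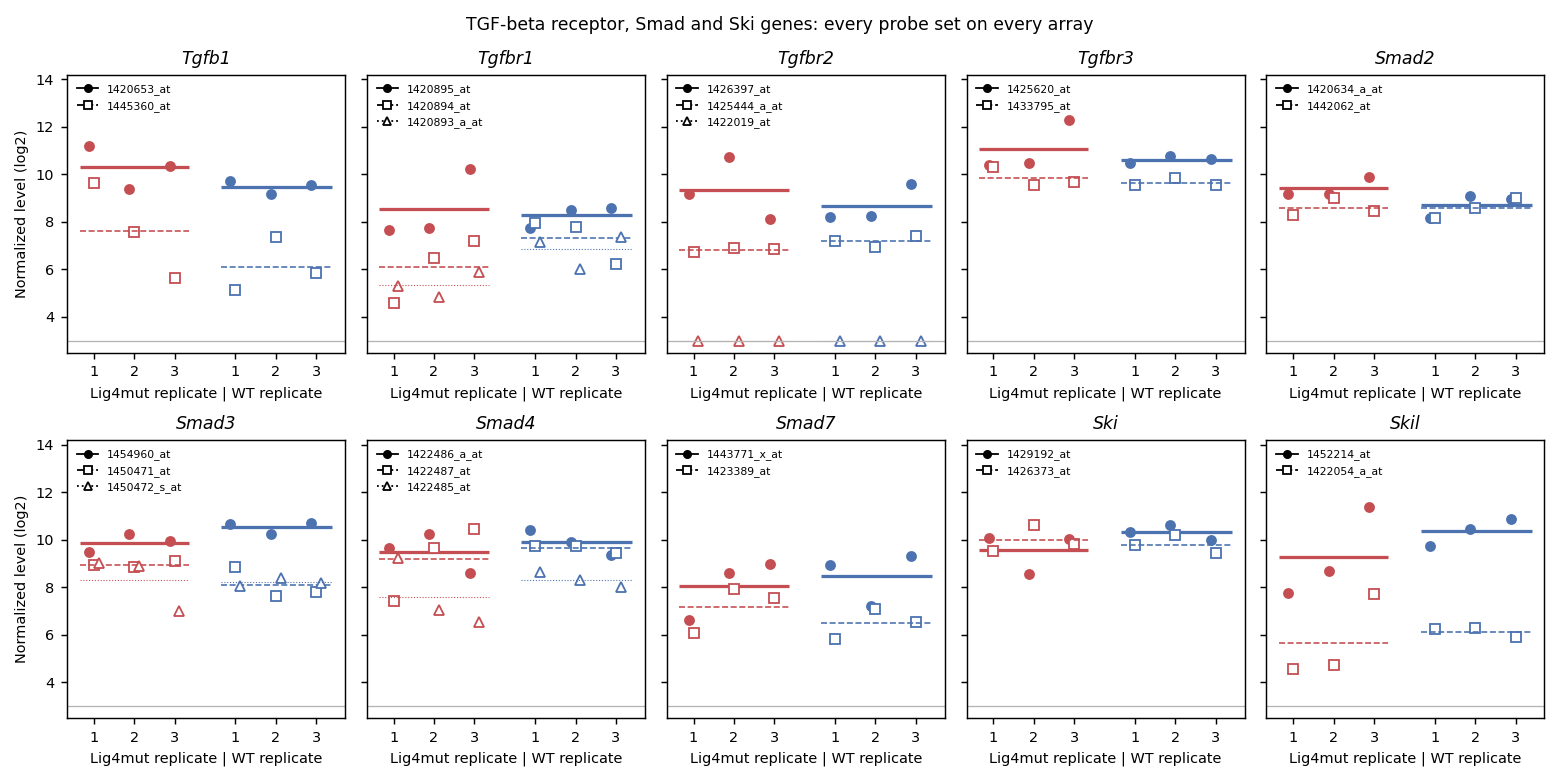
Normalized level (log2) of every probe set of the 10 genes on each array, with Lig4mut replicates in red at left and WT replicates in blue at right. Symbols mark the probe sets of a gene, filled for the one with the highest mean level, horizontal lines are genotype means (n = 3) and the grey line is the floor at 3. Most panels show wider scatter among the Lig4mut arrays than among the WT arrays, as did 69.8% of all probe sets above the floor. In Skil, Lig4mut replicate 3 was at 11.39 and replicate 1 at 7.75.

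Tgfb1, the ligand that blood cells and their bone marrow neighbours secrete, had higher mean values in Lig4mut with both of its probe sets, and neither passed the threshold. The brighter probe set, 1420653_at, was at 11.20, 9.40 and 10.35 in Lig4mut replicates 1, 2 and 3 and at 9.72, 9.17 and 9.55 in those of WT. Lig4mut replicates 1 and 3 were above every WT array and replicate 2 was among them. The difference was 0.83 ± 0.50 (SE, n = 3 per genotype; limma, adjusted p = 0.457), with a 95% confidence interval of -0.44 to 2.10, and leaving out Lig4mut replicate 1 gave 0.39 and leaving out replicate 2 gave 1.29. The other probe set, 1445360_at, was at 9.64, 7.57 and 5.63 in Lig4mut and at 5.14, 7.35 and 5.85 in WT. Replicate 1 was again the highest array, replicate 3 lay inside the WT range, and the difference of 1.50 ± 1.19 became 0.48 when Lig4mut replicate 1 was left out and 2.49 when replicate 3 was.

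Tgfbr1, the type I receptor kinase that phosphorylates SMAD2 and SMAD3, gave values that depended on the probe set. Its dimmest probe set, 1420893_a_at, was at 5.29, 4.84 and 5.88 in Lig4mut and at 7.16, 6.02 and 7.37 in WT. All 3 Lig4mut arrays were below all WT arrays, although Lig4mut replicate 3 and WT replicate 2 were only narrowly apart. The difference was -1.51 ± 0.47 (SE), which is 2.85-fold, with a 95% confidence interval of -2.72 to -0.31 (limma, unadjusted p = 0.0233, adjusted p = 0.215). It was -1.59 relative to the median of all probe sets. Of 14 alternatives that kept the probe set, 9 left it at an unadjusted p under 0.05.

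The second Tgfbr1 probe set, 1420894_at, was at 4.60, 6.47 and 7.21 in Lig4mut and at 7.93, 7.77 and 6.22 in WT, a difference of -1.21 ± 0.85 with overlapping genotypes, which was -0.47 without Lig4mut replicate 1. The brightest, 1420895_at, was at 7.65, 7.76 and 10.23 in Lig4mut and at 7.72, 8.52 and 8.58 in WT. Its mean difference of 0.27 ± 0.80 rested on Lig4mut replicate 3, without which it was -0.57. The mean over the 3 probe sets was -0.82 ± 0.52 (limma, adjusted p = 0.418).

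Tgfbr2, the ligand-binding type II receptor, likewise had probe sets in both directions. Probe set 1425444_a_at was at 6.73, 6.88 and 6.87 in Lig4mut and at 7.19, 6.95 and 7.42 in WT, with every Lig4mut array below every WT array. The difference was small, -0.36 ± 0.16 (SE; limma, unadjusted p = 0.0751, adjusted p = 0.34). It lay at -0.65 in the values as deposited, -0.55 after cyclic loess and -0.33 with arrays centred on their medians (limma, adjusted p = 0.222, 0.316 and 0.367), and at -0.24 without WT replicate 3 (limma, adjusted p = 0.57). The unadjusted p was 0.00587 in the values as deposited and 0.0221 after cyclic loess (limma). The brightest probe set, 1426397_at, was at 9.16, 10.72 and 8.11 in Lig4mut and at 8.22, 8.25 and 9.59 in WT, and the difference of 0.64 ± 0.79 was -0.051 without Lig4mut replicate 2. Probe set 1422019_at stood at the floor on all 6 arrays and gives no comparison.

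Tgfbr3, or betaglycan, a co-receptor that presents the ligand to TGFBR2, had 1 high Lig4mut array in each probe set, and not the same one. Probe set 1425620_at was at 10.41, 10.50 and 12.28 in Lig4mut and at 10.46, 10.76 and 10.64 in WT. Lig4mut replicates 1 and 2 sat at the WT level and replicate 3 stood far above it. The difference of 0.44 ± 0.56 was -0.17 without that array. In the other probe set, 1433795_at, replicate 1 was the high array, with 10.31, 9.56 and 9.67 in Lig4mut and 9.56, 9.84 and 9.57 in WT. Its difference of 0.19 ± 0.24 (95% confidence interval -0.43 to 0.81) was -0.040 without that array.

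**Figure D2:**
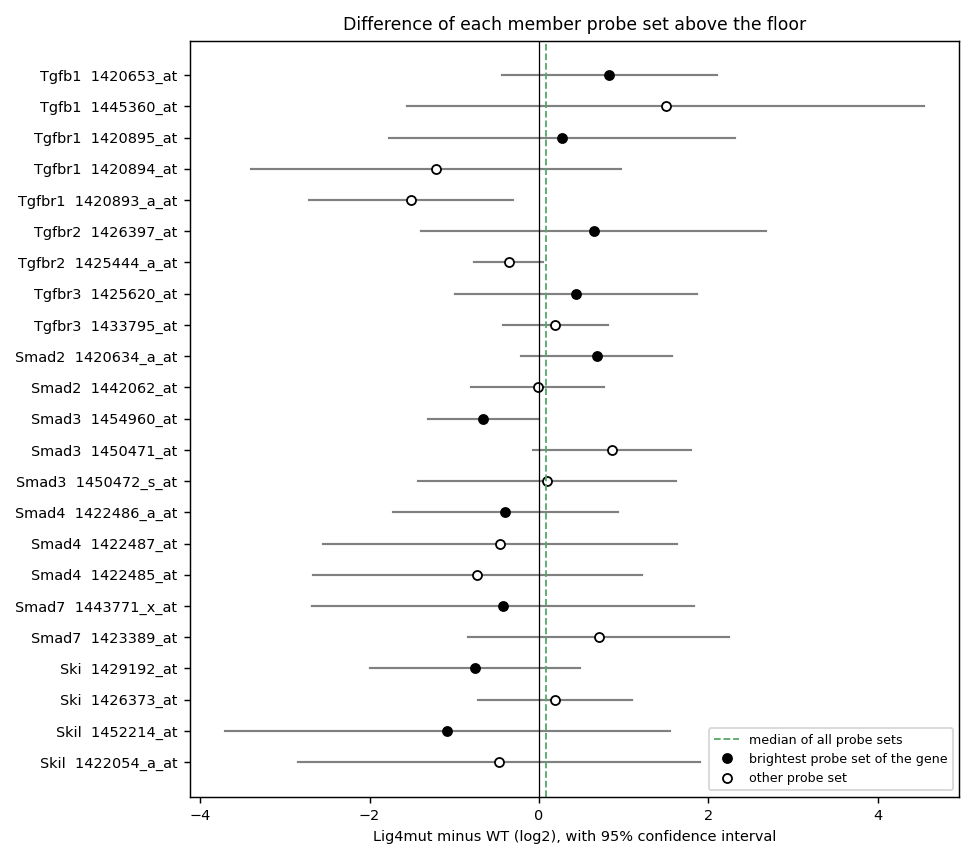
Difference between genotypes (Lig4mut minus WT, log2; points) with the 95% confidence interval from limma (bars) for the 23 probe sets above the floor, n = 3 arrays per genotype. Filled points are the brightest probe set of each gene and the dashed line is the median of all probe sets, 0.082. The intervals of 2 probe sets exclude 0, those of Tgfbr1 1420893_a_at and Smad3 1454960_at, both lower in Lig4mut. Of all probe sets, 5.3% were lower and 12.2% higher at an unadjusted p under 0.05. For 6 genes the points fall on both sides of 0.

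Smad2 and Smad3, the receptor-activated Smads of this branch, did not share a direction across their probe sets. Smad2 probe set 1420634_a_at was at 9.17, 9.18 and 9.88 in Lig4mut and at 8.15, 9.08 and 8.96 in WT. It was the probe set with all Lig4mut arrays above all WT arrays, but Lig4mut replicates 1 and 2 were close to the top WT array. The difference was 0.68 ± 0.35 (SE; limma, unadjusted p = 0.106, adjusted p = 0.388), and it was 0.39 without WT replicate 1 and 0.45 without Lig4mut replicate 3. The second Smad2 probe set, 1442062_at, was at 8.29, 8.99 and 8.46 in Lig4mut and at 8.16, 8.59 and 9.02 in WT, a difference of -0.013 ± 0.31 with a 95% confidence interval of -0.80 to 0.77.

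Smad3 had its brightest probe set, 1454960_at, at 9.48, 10.23 and 9.93 in Lig4mut and at 10.65, 10.23 and 10.72 in WT. The Lig4mut arrays were all below the WT arrays, with Lig4mut replicate 2 and WT replicate 2 nearly level. The difference was -0.66 ± 0.26 (SE), which is 1.58-fold, with a 95% confidence interval that ended just below 0 (limma, unadjusted p = 0.0497, adjusted p = 0.285). Only 3 of 14 alternatives left it at an unadjusted p under 0.05, and with arrays centred on their medians it was -0.31 (limma, adjusted p = 0.573).

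Another Smad3 probe set, 1450471_at, went the other way, at 8.92, 8.84 and 9.09 in Lig4mut and at 8.86, 7.63 and 7.78 in WT (0.86 ± 0.36; limma, unadjusted p = 0.0637, adjusted p = 0.316). WT replicate 1 stood apart from the other WT arrays here, and without it the difference was 1.25. The third, 1450472_s_at, was at 9.01, 8.89 and 6.998 in Lig4mut and at 8.03, 8.39 and 8.19 in WT, so Lig4mut lay on both sides of WT (0.095 ± 0.60). By the array maker's naming such an _s_at set holds probes shared with other transcripts. The mean over the 3 probe sets was 0.10 ± 0.22 (limma, adjusted p = 0.833).

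Smad4, the partner that SMAD2 and SMAD3 share, had lower mean values in Lig4mut with all 3 of its probe sets, none past the threshold. Probe set 1422486_a_at was at 9.66, 10.23 and 8.60 in Lig4mut and at 10.42, 9.92 and 9.34 in WT, with a difference of -0.40 ± 0.52 that was 0.052 without Lig4mut replicate 3. Probe set 1422487_at was at 7.43, 9.65 and 10.45 in Lig4mut and at 9.74, 9.74 and 9.45 in WT, where replicate 1 alone was low, and its difference of -0.46 ± 0.81 was 0.41 without that array. In the third, 1422485_at, replicates 2 and 3 were low instead, with 9.21, 7.02 and 6.54 in Lig4mut and 8.66, 8.30 and 8.00 in WT (-0.73 ± 0.76). This difference was -1.54 without replicate 1 of Lig4mut (limma, adjusted p = 0.134), -0.45 without its replicate 2 and -0.20 without its replicate 3. The low arrays thus differed between probe sets of the same gene. Averaged over its probe sets Smad4 differed by -0.53 ± 0.22 (limma, unadjusted p = 0.0626, adjusted p = 0.264).

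Smad7, the inhibitory Smad that TGF-beta itself induces, showed no common direction. Probe set 1443771_x_at, of a type that can bind similar sequences, was at 6.61, 8.60 and 8.99 in Lig4mut and at 8.92, 7.22 and 9.33 in WT (-0.42 ± 0.88). Both genotypes held 1 low array. The other, 1423389_at, was at 6.09, 7.92 and 7.53 in Lig4mut and at 5.81, 7.06 and 6.54 in WT (0.71 ± 0.60; limma, adjusted p = 0.602). Replicates 2 and 3 of Lig4mut were above all WT arrays, and replicate 1 was inside the WT range. Leaving out Lig4mut replicate 1 gave a difference of 1.25, leaving out its replicate 2 gave 0.34, and leaving out WT replicate 1 gave 0.38.

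Ski and Skil encode related proteins that hold Smad complexes in a repressive state. Ski probe set 1429192_at was at 10.07, 8.55 and 10.03 in Lig4mut and at 10.32, 10.60 and 9.998 in WT, where Lig4mut replicate 2 was low and the other arrays lay together. Its difference of -0.76 ± 0.48 was -0.26 without that array. The second Ski probe set, 1426373_at, had its highest value in the same array, with 9.53, 10.60 and 9.83 in Lig4mut and 9.76, 10.18 and 9.45 in WT (0.19 ± 0.35).

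Skil had the same order of Lig4mut arrays in both of its probe sets. The brighter, 1452214_at, was at 7.75, 8.66 and 11.39 in Lig4mut and at 9.73, 10.45 and 10.86 in WT. Probe set 1422054_a_at was at 4.55, 4.72 and 7.71 in Lig4mut and at 6.24, 6.26 and 5.89 in WT. Lig4mut replicates 1 and 2 were below every WT array and replicate 3 above every WT array in each. The differences were -1.08 ± 1.02 and -0.47 ± 0.92 (SE; limma, adjusted p = 0.64 and 0.843). Without Lig4mut replicate 3 they were -2.14 and -1.49 (limma, unadjusted p = 0.0115 and 0.00108, adjusted p = 0.189 and 0.16), without replicate 1 they were -0.32 and 0.087, and without replicate 2 they were -0.78 and 0.0012. With all arrays, the 95% confidence interval of the brighter probe set ran from -3.71 to 1.54.

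Across the 23 probe sets the Lig4mut arrays scattered more than the WT arrays. The SD between replicates was larger in Lig4mut for 18 of the 23, or 78.3%, against 69.8% of all probe sets above the floor, with a median SD of 0.96 in Lig4mut and 0.43 in WT for the 23. The same medians over all probe sets were 0.49 and 0.32. The widest were Tgfb1 1445360_at, with SD 2.01 in Lig4mut and 1.13 in WT, and the 2 Skil probe sets, with 1.89 and 1.78 in Lig4mut and 0.57 and 0.21 in WT. In contrast, Smad3 1450471_at had an SD of 0.13 in Lig4mut and 0.67 in WT. Lig4mut replicate 1 held the lowest of the 6 values for 9 of the 23 probe sets, or 39.1% against 17.3% of all probe sets, and Lig4mut replicate 3 the highest for 7, or 30.4% against 22.5%. Probe sets of 1 gene share their transcript, so these counts are descriptions and were not tested.

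**Figure D3:**
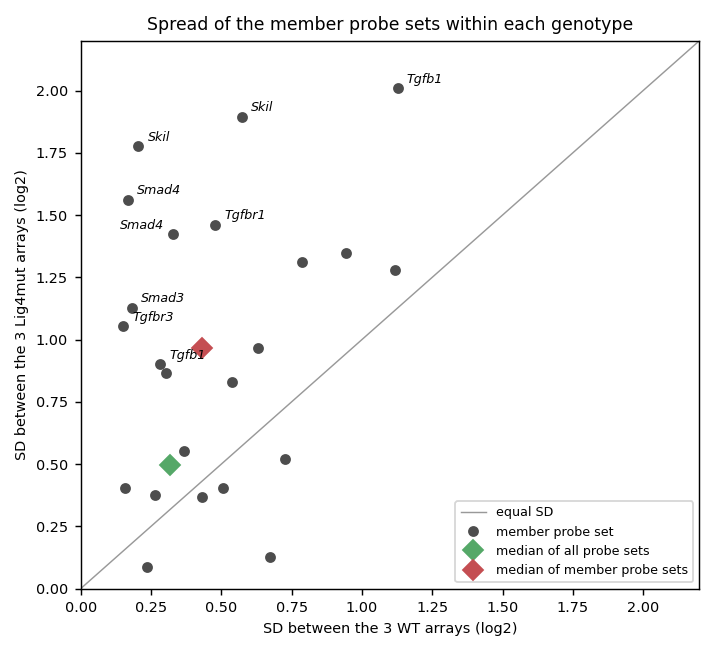
Standard deviation between the 3 Lig4mut arrays (vertical axis) and between the 3 WT arrays (horizontal axis) for the 23 probe sets above the floor (log2). Points above the grey line, 18 of 23 or 78.3%, varied more among Lig4mut arrays, beside 69.8% of all probe sets above the floor. Diamonds give the median of these 23 probe sets and of all probe sets above the floor.

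The rest of the pathway was read from 72 further genes in 6 lists, of which 69 were measured, each by its brightest probe set. None passed the threshold over all probe sets (limma; 0.0055% of the brightest probe sets of all genes did), and the smallest adjusted p was 0.127. At an unadjusted p under 0.05, 8 were higher and 3 lower in Lig4mut, beside 15.8% and 4.03% of all genes. All Lig4mut arrays lay above all WT arrays for 11 genes (21.0% of all genes) and below for 5 (5.65% of all genes). The median difference over 68 genes above the floor was -0.081, against 0.18 over all genes, those at the floor included. The median of the 68 ran from -0.11 to 0.052 over single arrays left out and was 0.18 with arrays centred on their medians. Leaving out single arrays gave 4 to 7 genes higher and 2 to 8 lower at the unadjusted level, the 8 without Lig4mut replicate 2 and the 4 higher without WT replicate 1. Over all 34945 probe sets, not only the brightest, 4132 were higher and 2094 lower without Lig4mut replicate 2. Without WT replicate 1 there were 2891 and 1495, and with all arrays 4253 and 1853.

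Among 12 measured genes of ligands and their activation, 1 was higher and 2 were lower at the unadjusted level, beside 15.8% and 4.03% of all genes. The median was -0.24 over the 11 above the floor (-0.28 to -0.10 over single arrays left out). Itgav, the integrin alpha V subunit through which latent TGF-beta is activated, was at 7.94, 7.77 and 8.34 in Lig4mut and at 8.72, 8.73 and 9.11 in WT, without overlap (-0.84 ± 0.21; limma, adjusted p = 0.171). Averaged over its 5 probe sets it was at -0.28. Furin, the protease that cuts the TGF-beta precursor, was at 8.78, 8.76 and 8.34 in Lig4mut and at 9.76, 9.10 and 9.16 in WT (-0.71 ± 0.25; adjusted p = 0.245 by limma). Itgb6, a partner of integrin alpha V best known in epithelium, and the latency protein gene Ltbp1 differed by 0.38 ± 0.14 and 0.61 ± 0.27, and by 0.15 and 0.31 in the values as deposited.

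Of 11 other receptor genes 2 were higher at the unadjusted level and none lower, beside 15.8% and 4.03% of all genes. Their median was -0.020. It was 0.31 without WT replicate 3, 0.21 without Lig4mut replicate 1, 0.12 without Lig4mut replicate 2 and 0.064 without WT replicate 1. It was -0.081 without WT replicate 2 and -0.061 without Lig4mut replicate 3. With arrays centred on their medians it was 0.16, in the values as deposited -0.15 and with cyclic loess -0.058. Bambi, a decoy receptor without a kinase that dampens TGF-beta signals, was at 7.47, 9.07 and 8.31 in Lig4mut and at 6.36, 6.08 and 7.45 in WT (1.66 ± 0.56; limma, adjusted p = 0.241). The lowest Lig4mut array and the highest WT array were nearly level. The bone morphogenetic protein (BMP) receptor genes Bmpr1b and Bmpr1a had differences of 0.60 ± 0.19 and 0.38 ± 0.16, which were 0.36 and 0.081 in the values as deposited. Bmpr2 had one of -1.10 ± 0.97, which was -0.061 without Lig4mut replicate 3.

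Crebbp and Foxh1 had the smallest p among 9 other Smads and nuclear partners. Crebbp, the acetyltransferase that Smad complexes recruit, was at 10.35, 10.42 and 9.87 in Lig4mut and at 11.33, 11.44 and 11.23 in WT (-1.12 ± 0.19, 2.18-fold; limma, adjusted p = 0.127), and the mean of its 4 probe sets was -0.45. Foxh1, a DNA-binding partner of SMAD2 known from the embryo, was at 6.51, 6.44 and 6.17 in Lig4mut and at 5.64, 5.52 and 5.60 in WT (0.79 ± 0.13; limma, adjusted p = 0.128). Smad9, a BMP-type Smad, differed by 0.55 ± 0.19. In the values as deposited Foxh1 was at 0.48 and Smad9 at 0.23. Zfyve9, which encodes the anchor protein that brings SMAD2 and SMAD3 to the receptor, was at 6.11, 3.61 and 5.79 in Lig4mut and at 6.61, 6.96 and 6.80 in WT (-1.62 ± 0.71), a difference that was -0.84 without Lig4mut replicate 2. In this list 2 genes were higher and 1 lower at the unadjusted level, beside 15.8% and 4.03% of all genes. The median of the list was 0.24. It was 0.061 without WT replicate 1, 0.13 without Lig4mut replicate 2, 0.37 without Lig4mut replicate 3 and 0.55 without WT replicate 2. With arrays centred on their medians it was 0.52.

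Among 14 measured inhibitors and turnover factors, 2 were higher at the unadjusted level and none lower, beside 15.8% and 4.03% of all genes. Their median was -0.18. The median was 0.14 without Lig4mut replicate 2, -0.032 without Lig4mut replicate 3, -3.4e-05 without WT replicate 1, 0.016 with arrays centred on their medians and -0.38 with the probe sets of each gene averaged. Pmepa1, which TGF-beta induces and whose product keeps SMAD2 and SMAD3 from the receptor, was at 7.08, 8.13 and 7.26 in Lig4mut and at 5.96, 5.69 and 6.20 in WT, without overlap (1.54 ± 0.33, 2.91-fold; limma, adjusted p = 0.149). Only 1 of its 3 probe sets was higher, and their mean was 0.21. Tgif2, a homeobox co-repressor of Smads, was at 9.52, 8.72 and 9.02 in Lig4mut and at 7.70, 8.44 and 8.32 in WT (0.93 ± 0.31). Smurf1, a ubiquitin ligase of the Smad system, differed by 0.37 ± 0.16 (0.23 in the values as deposited and -0.31 averaged over its probe sets), and Usp9x, a deubiquitinase that acts on SMAD4, by -1.22 ± 0.63 (averaged, -0.53).

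The 14 measured genes known to respond to TGF-beta had a median of 0.84, with 10 higher and 4 lower mean values. Over all 18193 genes the median was 0.18, with 11174 higher and 7019 lower. The list was not split by direction of response, so its median does not measure TGF-beta signalling. This median was 0.23 without Lig4mut replicate 3, 0.43 without WT replicate 1 and 0.41 with the probe sets of each gene averaged. The medians over all genes in these settings were 0.17, 0.18 and 0.13. In the list 1 gene was higher at an unadjusted p under 0.05, beside 15.8% of all genes. That gene, Tgfbi, which encodes a secreted matrix protein, was at 10.20, 11.51 and 11.57 in Lig4mut and at 8.28, 8.65 and 8.89 in WT (2.49 ± 0.44, 5.61-fold; limma, unadjusted p = 0.00233, adjusted p = 0.13). All 4 of its probe sets were higher. Cdkn1c, the cell cycle inhibitor p57 of quiescent HSC, was at 7.96, 8.81 and 7.92 in Lig4mut and at 9.24, 8.56 and 9.21 in WT (-0.78 ± 0.34), with overlapping genotypes. Ccn2, a matrix-associated growth factor, and Gadd45b, a stress sensor, differed by -1.91 ± 1.03 and 0.99 ± 0.49.

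In the 9 genes of other TGF-beta branches none reached an unadjusted p under 0.05, beside 15.8% higher and 4.03% lower of all genes. The median was -0.29, which was 0.044 with arrays centred on their medians and -0.40 to -0.25 over single arrays left out. The kinase gene Mapk8 was at 5.80, 8.22 and 7.45 in Lig4mut and at 8.70, 8.27 and 9.19 in WT (-1.56 ± 0.69), and its difference was -0.88 without Lig4mut replicate 1. Traf6, a ubiquitin ligase that TGFBR1 can engage, and the adaptors Tab2 and Tab3 differed by 1.12 ± 0.62, -0.23 ± 0.15 and -0.72 ± 0.48. Traf6 was at 0.010 as the mean of its probe sets and Tab2 at 0.12 with arrays centred on their medians.

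**Figure D4:**
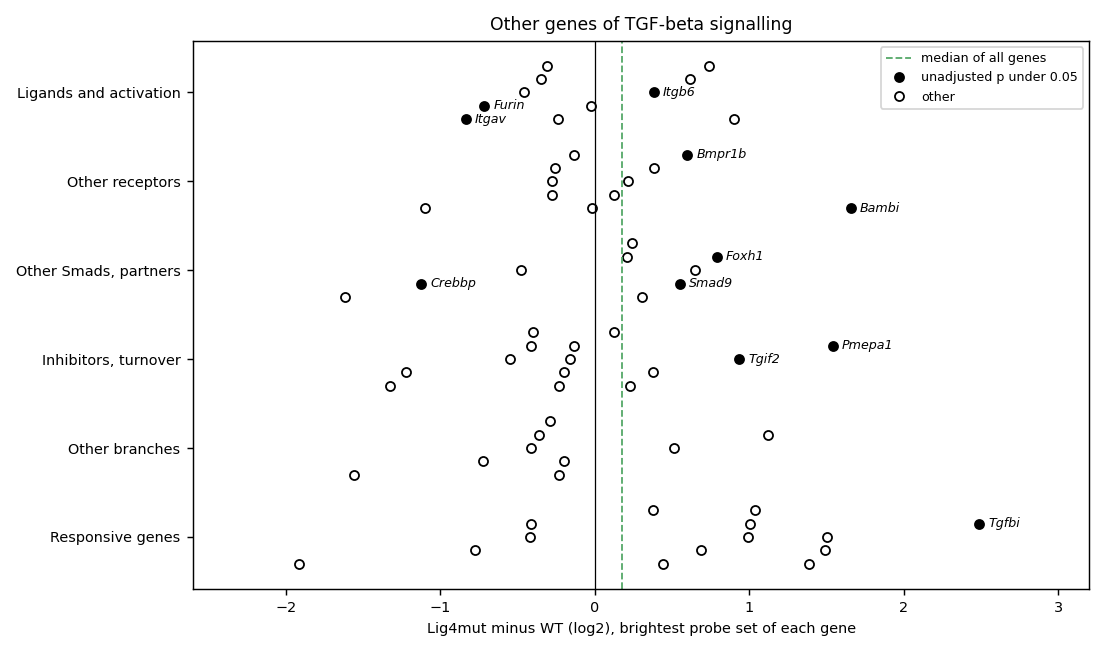
Difference between genotypes (Lig4mut minus WT, log2) for the brightest probe set of each of 68 further pathway genes above the floor, by list. Filled and named points are the 11 genes at an unadjusted p under 0.05 (limma, n = 3 arrays per genotype). Of them 8 were higher and 3 lower, beside 15.8% and 4.03% of all genes. The dashed line is the median of all genes, 0.18. Tgfbi lies farthest to the right at 2.49, followed by Bambi at 1.66 and Pmepa1 at 1.54.

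Some markers of other cell types also differed between the genotypes at the unadjusted level. None passed the threshold after adjustment (limma, smallest adjusted p = 0.122), and they were read only after the quantile step. Among macrophage and dendritic cell markers, 5 of the 7 measured had higher values at an unadjusted p under 0.05, beside 15.8% of all genes. The 5 were Csf1r, H2-Aa, H2-Ab1, Marco and Siglech. The mean level of the 7 was 7.09 to 7.56 in Lig4mut and 6.24 to 6.62 in WT. Tgfbi is also known from monocytes and macrophages, and the part of such cells in its values was not tested. The macrophage receptor gene Csf1r was at 6.90, 7.14 and 6.72 in Lig4mut and at 6.53, 6.32 and 5.83 in WT, whereas the macrophage genes Adgre1 and Cd68 had differences of -0.049 ± 0.54 and -0.14 ± 0.68. The mean over 6 endothelial genes, a cell type known for TGF-beta family receptors, was 10.29, 10.48 and 9.35 in Lig4mut and 8.03, 9.20 and 9.62 in WT. The part of endothelial transcripts in these values was not tested.

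The mean over 6 megakaryocyte and platelet genes, cells that make much Tgfb1, was 8.28 to 8.87 in Lig4mut and 7.96 to 8.49 in WT. Granulocyte genes differed widely between Lig4mut arrays, with means over 8 genes of 6.69, 11.03 and 7.38 in Lig4mut and 9.50, 8.38 and 8.68 in WT. B cell genes were at 6.05 to 6.98 in Lig4mut and 5.99 to 6.08 in WT, and T cell genes at 5.65 to 6.43 in Lig4mut and 5.11 to 5.74 in WT. Erythroid genes were at 6.79 to 7.89 in Lig4mut and 6.90 to 7.38 in WT, and stromal genes at 6.56 to 8.49 in Lig4mut and 6.11 to 8.28 in WT. The progenitor genes Cd48, Flt3 and Cd34 averaged 7.17 to 7.58 in Lig4mut and 7.65 to 8.20 in WT. At an unadjusted p under 0.05 (limma), 2 of 6 B cell genes, Ebf1 and Pax5, and 1 of 4 T cell genes were higher. So were 1 of 6 endothelial genes and 1 of 6 megakaryocyte and platelet genes, beside 15.8% of all genes. None of the granulocyte, erythroid, stromal or progenitor genes reached that level in either direction. No measured marker was at the floor on all 6 arrays, and the part of any of these cells in the values of the TGF-beta genes was not tested.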

How the data were processed

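The authors deposited log2 expression values per probe set of an Affymetrix mouse array, made with RMA according to the submitters' processing notes (version not given). Per the labels, RNA came from Trizol extraction and was labelled with biotin, and the series design names an amplification kit. The lowest value is exactly 3 on each array, and where this floor comes from is not stated. Arrays have no read depth, and the precision rests on their number and on the spread between replicates.

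Gene names came from GEO's platform annotation. Of 45101 probe sets, 64 controls, 932 with several genes and 9160 without an entry were left out. For 34741 the symbol was brought up to date by gene identifier from NCBI's mouse table for GRCm38.p6, and 204 kept the annotation's symbol. Array medians differed, so values were quantile normalized over the 6 arrays. limma 3.58.1 in R 4.3.3 (lmFit, eBayes, two-sided, no filter on dim probe sets) was fitted to all 34945 probe sets with Benjamini-Hochberg adjustment, a threshold of 0.05 and 95% confidence intervals. The fit was also run on simulated data with equal spread in both genotypes. That run cannot tell how the p-values behave with the wider Lig4mut spread seen here. The exact permutation test of 3 against 3 arrays cannot give a p below 0.1 and was not run. The brightest probe set of a gene has the highest mean over the 6 arrays. The quantile step added here moved some differences, not only those of dim genes, by more than 1.5 times relative to the values as deposited. The differences in the deposited values are given beside the named pathway genes this concerns. Of the members, Smad7 1423389_at was at 0.44 as deposited, Tgfbr1 1420895_at at 0.17, Skil 1422054_a_at at -0.75 and Smad2 1442062_at at -0.086. Named pathway genes are up to 4 per list with the smallest p. The 10 genes, the lists and the markers were chosen with earlier results of these data known. Alternatives were other scalings, a block for replicate number, each array left out in turn, leaving out probe sets under the 40th percentile of mean level, 1 value per gene, other variance models and, chosen after seeing the data, Xist-high arrays as a block.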

Additional observations from a re-analysis of the deposited data

How the results depend on the processing

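Under all 16 alternatives 0 of the members passed the adjusted threshold of limma, with smallest adjusted p between 0.134 and 0.41. At an unadjusted p under 0.05 in place of 0 higher and 2 lower there were 2 and 1 with arrays centred on their medians, 1 and 2 with cyclic loess, 1 and 1 with the replicate block, 0 and 1 with dim probe sets left out, with trend and robust moderation, or with the brightest probe set per gene, and 0 and 0 with array weights or the mean of probe sets per gene. Leaving out single arrays gave 0 to 1 higher and 0 to 3 lower. With 0 lower were the settings without WT replicate 1 and without WT replicate 3. Over all 34945 probe sets these settings gave 2891 and 3167 higher and 1495 and 1516 lower, against 4253 higher and 1853 lower with all arrays. In the values as deposited 1864 of all probe sets were higher and 2553 lower. Over all probe sets 6106 lay at an unadjusted p under 0.05, and 2603 with dim ones left out, where fewer were tested. Of these 69.7% were higher, 42.2% in the values as deposited, 78.9% with median centring, 51.9% with cyclic loess and 57.1% with dim ones left out, and the median difference of all probe sets was 0.082, -0.036, 0.28, 0.0052 and -0.0078 in that order.

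Same-numbered Lig4mut and WT arrays did not deviate together (r of deviations across probe sets 0.043, 0.0069 and -0.031). For arrays with different numbers r ran from -0.059 to 0.054. With so few arrays these values cannot tell whether same-numbered arrays shared a source or a batch, and the labels name no pairing. The replicate block gave 5077 probe sets at an unadjusted p under 0.05 and no member past the adjusted threshold.

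Of 686 values of the 47 named probe sets under the alternatives, 662 kept their direction, none was called, and 24 turned. Over single arrays left out, Tgfbr1 1420895_at ran from -0.57 to 0.72, Tgfbr2 1426397_at from -0.051 to 1.25, Tgfbr3 1425620_at from -0.17 to 0.76 and 1433795_at from -0.040 to 0.33, Smad2 1442062_at from -0.23 to 0.20, Smad3 1450472_s_at from -0.26 to 0.74, Smad4 1422486_a_at from -0.77 to 0.052 and 1422487_at from -1.10 to 0.41, Smad7 1443771_x_at from -1.06 to 0.31, Ski 1426373_at from -0.11 to 0.42 and Skil 1422054_a_at from -1.49 to 0.087. As the mean of probe sets Tgfbr1 was at -0.82, Smad3 at 0.10, Smad7 at 0.14 and Smurf1 at -0.31. Smad2 1442062_at was at 0.23 with median centring and 0.019 with cyclic loess, Tab2 at 0.12 with median centring and Smad3 1450472_s_at at -0.033 in the values as deposited. Why these turned was not tested. Tgfbr1 1420893_a_at stayed between -1.93 and -1.25 over its 14 alternatives (limma, adjusted p 0.207 to 0.434). With 3 arrays per genotype the median SE of a member probe set was 0.56.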

Other observations

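Over the 6 arrays, 97 of 16077 other genes had a Pearson r above 0.9 with Smad3 probe set 1454960_at, the most alike being Polr3g (r = 0.988), Atg4a (0.986) and Gatd1 (0.984). For Smad2 probe set 1420634_a_at there were 154 such genes, led by Iqgap1 (0.993), Nubp2 (0.992) and Cachd1 (0.992). These were the 2 member genes whose brightest probe set had the smallest p, and the points are 6 arrays in 2 genotypes, so the values are descriptions with no test.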
